A study of Mus musculus with 12 samples.

Results

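The genes described here code for the collagens, the laminins and most of the integrins, and were chosen by symbol alone. The name rule took 75 of the 17564 genes in the tables, namely symbols that begin with Col and a chain number, with Lama, Lamb or Lamc and a number, or with Itga or Itgb and a number. Of these 75 genes, 42 were collagen chains, 11 were laminin chains and 19 were integrin subunits. The other 3, Col4a3bp, Itgb1bp1 and Itgb3bp, are named after a chain or subunit but code for other proteins, and they were kept out of the counts below. Integrin subunits named by a letter, such as Itgav, fall outside the rule.

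Collagens are triple-helical proteins of the extracellular matrix, laminins are cross-shaped trimers of an alpha, a beta and a gamma chain, and integrins are paired alpha and beta receptors that hold cells to both. In the brain, type IV collagen and laminin form the basement membrane around blood vessels and under the meninges, whereas fibrillar collagens are found mainly in the meninges, the choroid plexus and the walls of larger vessels. Integrins are present on neurons, glia, endothelial cells and immune cells. In bulk tissue, more cells of a type and more RNA per cell cannot be told apart.

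RNA of the ventral hippocampus was sequenced from male C57BL/6 mice. WT and BDNF het-Met animals each received CORT or VEH, which made 4 groups of 3 libraries. BDNF het-Met mice are heterozygous for a knock-in allele with methionine in place of valine in the proregion of brain-derived neurotrophic factor, a neuronal growth factor, and WT mice have the normal gene. CORT groups drank corticosterone, the main glucocorticoid of rodents, at 25 mg/l in 1% ethanol for 6 weeks from an age of 2 months, and VEH groups drank 1% ethanol alone. Each library held the RNA of 2 animals.

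The value used for each gene was the authors' mean log2 CPM (read counts scaled to a common library total) over the libraries of their joint fit, which pools both genotypes and both treatments. Effects of CORT and of genotype were not analysed here. These means do not separate the groups, and the authors' own comparisons of VEH with CORT in each genotype were not used. Each gene thus has 1 value, without SD or test, and the differences between genes below are descriptions. Sequencing aimed at about 35 to 40 M reads for each library per the labels, and how many of these were counted is unknown. To compare genes of unlike length, CPM was divided by the kilobases that any annotated exon of the gene covers, giving CPM per kb. The median of 17557 genes with a gene model was 3.89 CPM per kb, and their quartiles were 1.09 and 10.9 CPM per kb.

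Matrix and integrin genes were mostly weakly expressed. Above 1 CPM per kb lay 33 of the 72 chains and subunits (45.8%), against 76.3% of all genes. Above the median gene lay 11 of the 72, and below the lower quartile of all genes lay 41. Collagens had the lowest family median, 0.591 CPM per kb, and the medians of laminins and integrins were 1.24 and 1.25 CPM per kb. The 11 genes above the median gene, in order of CPM per kb, were Itgb1, Itgb5, Col6a1, Itgb8, Col25a1, Col4a2, Lamb2, Col4a1, Lamc1, Lamb1 and Col9a3. They thus comprised 3 integrin beta subunits, 3 laminin chains and 5 collagens, and no laminin alpha chain or integrin alpha subunit of the name rule. The alpha subunit Itgav, outside that rule, did lie above the median gene, at 6.37 CPM per kb.

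**Figure D1:**
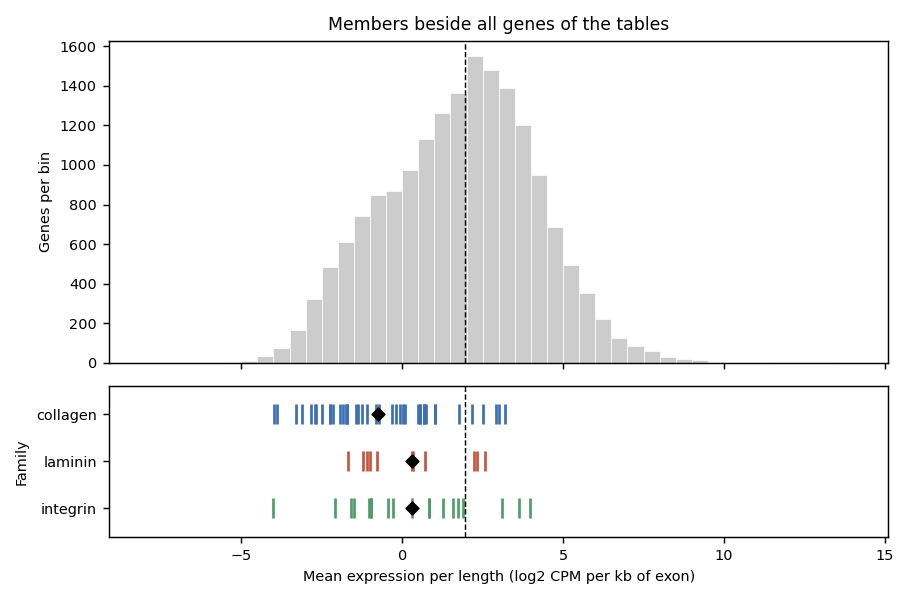
The upper panel counts the 17557 genes by mean expression (log2 CPM per kb of exon, bins of 0.5), with the median gene as a dashed line. The lower panel marks each of the 42 collagens, 11 laminins and 19 integrins on the same axis, with the family median as a diamond, and 11 of the 72 marks lie right of the line.

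The scale matters for some of these genes, since collagen and integrin transcripts differ in how much of them is coding. On log2 CPM without length, 19 of the 72 lay above the median gene, because members are long (a median of 7542.5 exon bases, against 3967 over all genes). With coding length in place of exon length 5 lay above it, namely Itgb1, Itgb5, Itgb8, Col25a1 and Itga4. Itgb1, Itgb5, Itgb8 and Col25a1 were thus above the median gene on every length scale tried and on log2 CPM.

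**Figure D2:**
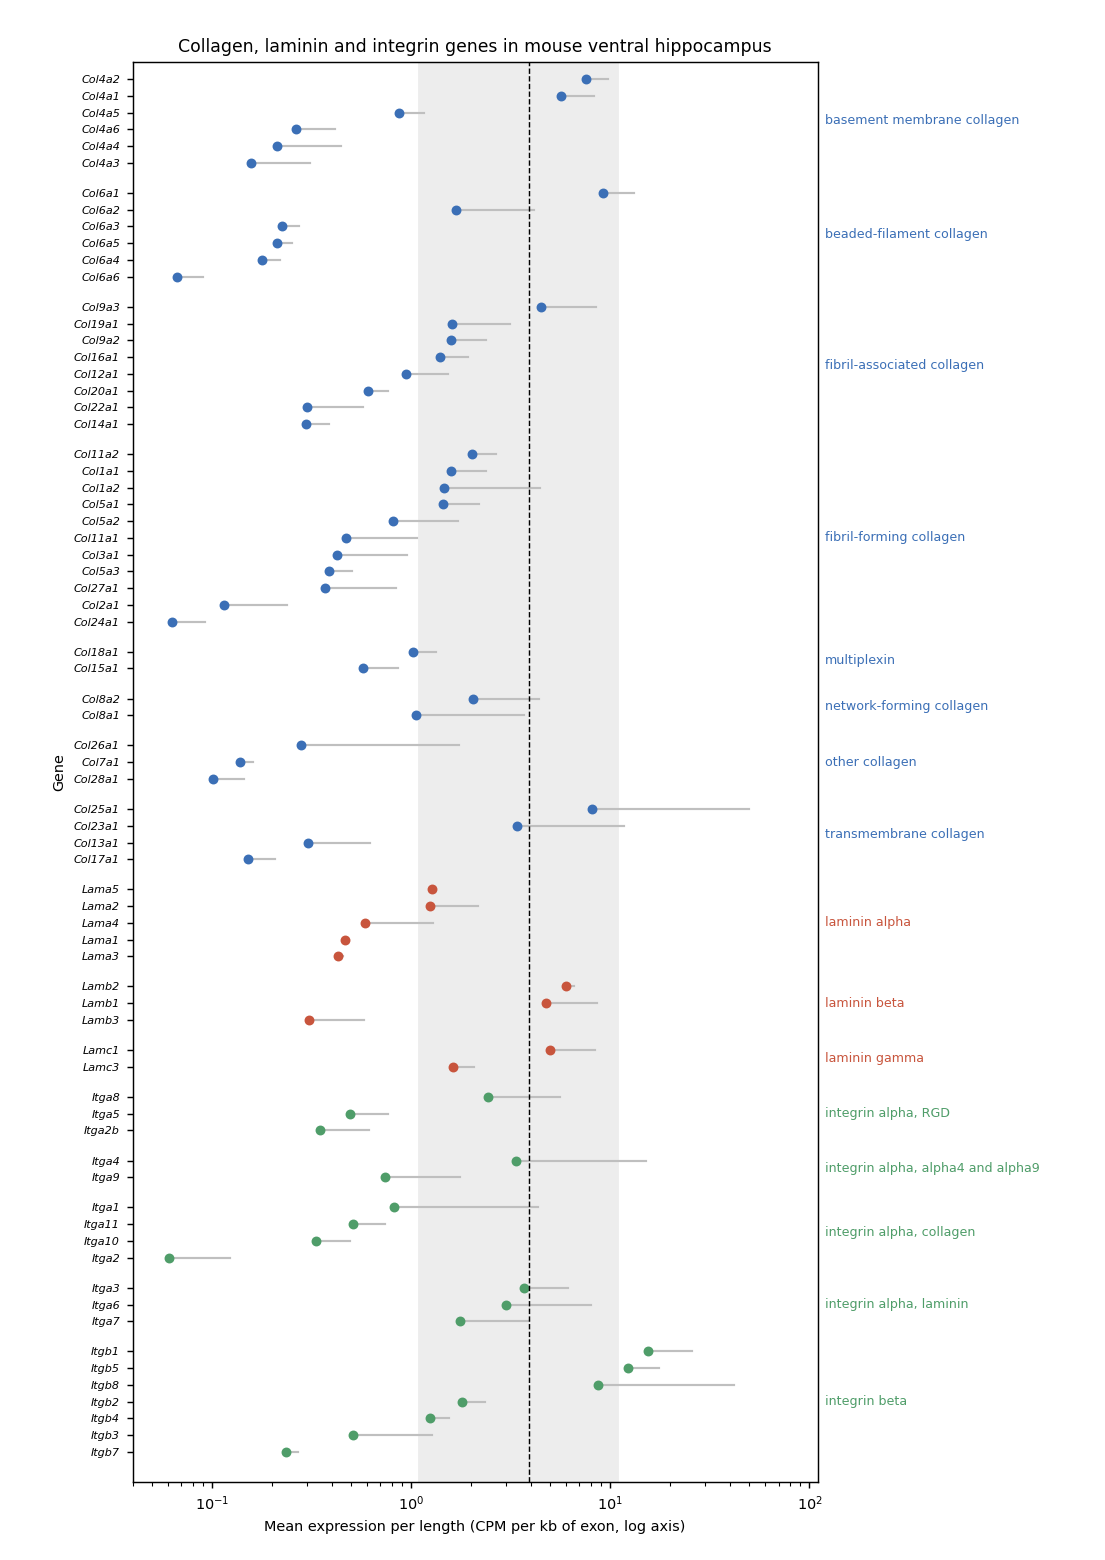
Each dot is the mean expression of a gene (CPM per kb of exon, log axis), grouped by role, for 71 chains and subunits. The grey line spans the values with the longest transcript or the coding length instead, the grey band runs between the quartiles of all genes, and the dashed line is the median gene at 3.89 CPM per kb.

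Basement membrane collagen was dominated by its ubiquitous chains. Type IV collagen has 6 chains, encoded as 3 gene pairs that lie head to head. Col4a2 (GRCm38 chromosome 8, 11312805 to 11449287) was at 7.54 CPM per kb and Col4a1 (chromosome 8, 11198423 to 11312826) at 5.66 CPM per kb. These chains form the common trimer of vascular basement membranes, in which Col4a1 contributes more copies than Col4a2. In mean RNA Col4a2 was nevertheless the higher, by 1.33-fold per kb of exon. The chains of the specialised network known from the kidney glomerulus and the inner ear were low, with Col4a5 at 0.874, Col4a4 at 0.212 and Col4a3 at 0.158 CPM per kb. Col4a6, found with Col4a5 in the basement membrane of smooth muscle, was at 0.264 CPM per kb.

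The promoters of Col4a1 and Col4a2 are shown because both genes start from the same stretch of DNA and are the highest type IV chains. Windows of 300 bases, from 250 before to 50 after the start, came from RefSeq on GRCm38.p6, read in the direction of each gene. The 78 bases that belong to both windows (chr8:11312777-11312854) are in capitals, once on each strand. The annotated transcripts overlap head to head by 22 bases.
Col4a1, chr8:11312777-11313076, minus strand: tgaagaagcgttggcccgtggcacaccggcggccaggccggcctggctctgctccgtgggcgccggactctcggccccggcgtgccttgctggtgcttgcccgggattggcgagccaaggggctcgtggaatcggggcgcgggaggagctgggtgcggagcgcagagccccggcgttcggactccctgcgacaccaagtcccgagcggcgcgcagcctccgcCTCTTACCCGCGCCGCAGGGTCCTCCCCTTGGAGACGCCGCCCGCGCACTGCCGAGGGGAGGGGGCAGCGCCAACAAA
Col4a2, chr8:11312555-11312854, plus strand: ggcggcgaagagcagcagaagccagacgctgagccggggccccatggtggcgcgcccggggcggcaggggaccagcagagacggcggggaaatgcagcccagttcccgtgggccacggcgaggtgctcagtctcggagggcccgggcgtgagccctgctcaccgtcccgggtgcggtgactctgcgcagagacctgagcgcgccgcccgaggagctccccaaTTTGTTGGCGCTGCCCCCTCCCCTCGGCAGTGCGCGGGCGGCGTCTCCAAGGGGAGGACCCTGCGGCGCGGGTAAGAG

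For Col4a4 and Col4a3, the lowest pair, the annotated starts lie 72 bases apart on chromosome 1. The window of Col4a4 is shown, with the 71 bases between the starts in capitals. No window for Col4a3 was used here.
Col4a4, chr1:82586800-82587099, minus strand: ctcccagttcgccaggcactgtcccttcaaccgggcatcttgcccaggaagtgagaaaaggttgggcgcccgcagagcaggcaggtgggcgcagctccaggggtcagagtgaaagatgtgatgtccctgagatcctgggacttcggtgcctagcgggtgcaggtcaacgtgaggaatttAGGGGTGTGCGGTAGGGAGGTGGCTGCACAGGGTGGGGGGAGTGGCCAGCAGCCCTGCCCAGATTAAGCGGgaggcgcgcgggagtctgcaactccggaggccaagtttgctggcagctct

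The windows of Col4a1 and Col4a2 differed in base composition from that of Col4a4, the only window used from the lower pair. The Col4a1 window held 37 CpG dinucleotides at 74% GC and the Col4a2 window 33 at 73.7% GC, whereas the Col4a4 window held 14 at 63.3% GC. A GC box (GGGCGG, either strand) occurred 1 time in the Col4a1 window and 3 times in the Col4a2 window, and 1 of these lies in the shared bases. A CCAAT box (CCAAT, either strand) occurred 1 time in each of these windows, and neither match lies wholly within the shared bases. The Col4a4 window held neither motif, and none of the 3 windows held TATAAA. Among 15432 windows of genes in the tables, 59.1% held GGGCGG, 37.1% CCAAT and 7.57% TATAAA. Among 56 windows of 52 chains and subunits, 33 (58.9%) held GGGCGG, 15 (26.8%) CCAAT and 4 (7.14%) TATAAA. A match of letters is a description of the window and not evidence of binding.

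Fibril-forming collagens, which give tissue its tensile strength, were all below the median gene per kb of exon. The highest of the 11 per kb of exon was Col11a2 (chromosome 17, 34039437 to 34066685) at 2.03 CPM, and its partner Col11a1 was at 0.473 CPM. With the longest transcript Col1a2 (1.77) lay above Col11a2 (1.21, log2 CPM per kb). Col1a2 was also above Col11a2 with coding length (2.14 against 1.42) and without length (4.19 against 3.80 log2 CPM). Type I collagen, the main collagen of the meninges and of connective tissue, had Col1a1 at 1.59 and Col1a2 at 1.46 CPM per kb. The order of this pair turned round with the length used, since the annotated exons of Col1a2 cover 12426 bases and its longest transcript 5348. Col5a1 was at 1.45 and Col5a2 at 0.807 CPM per kb, chains that help to set the width of type I fibrils. Col3a1, which accompanies type I collagen in vessel walls, was at 0.425 CPM per kb. Col5a3 and Col27a1 were at 0.385 and 0.368 CPM per kb. Col2a1, the collagen of cartilage, was at 0.115 CPM per kb, and the lowest of the group was Col24a1 at 0.0634 CPM per kb.

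Type VI collagen, which forms beaded filaments near basement membranes, was uneven between its chains. Its usual unit combines Col6a1, Col6a2 and Col6a3. Col6a1 (chromosome 10, 76708792 to 76726168) was the highest of the 42 collagens per kb of exon at 9.23 CPM, although Col25a1 exceeded it with the longest transcript, with coding length and without length. Col6a2 was at 1.68 and Col6a3 at 0.226 CPM per kb of exon. Col6a1 was thus 5.48-fold higher than Col6a2 per kb of exon. The difference was 2.45 on the log2 scale with exon length, 1.79 with the longest transcript and 1.67 with coding length, so Col6a1 was the higher with each length. The alternative chains Col6a5, Col6a4 and Col6a6 were at 0.213, 0.178 and 0.0671 CPM per kb.

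Among fibril-associated collagens, which sit on the surface of fibrils, Col9a3 (chromosome 2, 180597790 to 180622189) was the highest at 4.49 CPM per kb. Its partner Col9a2 was at 1.59 CPM per kb, 2.82-fold lower than Col9a3, and Col9a1 was not analysed here. Exons of Col9a3 share 234 bases (6.07%) with Tcfl5 on the other strand, and how the counting used strand is not given in the sources used here. Col19a1, known from interneurons and other neurons, was at 1.61 and Col16a1 at 1.39 CPM per kb. Col14a1, at 0.298 CPM per kb, was the lowest of the 8, and Col12a1, Col20a1 and Col22a1 lay between, at 0.945, 0.608 and 0.302 CPM per kb.

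Transmembrane collagens spanned a wide range. Col25a1 (chromosome 3, 130131501 to 130599877), a neuronal membrane collagen whose shed part associates with amyloid plaques, had the highest log2 CPM of the 72 genes, 6.71. Per kb of exon it was at 8.07 CPM, the fifth highest, since its annotated exons cover 12947 bases and its coding sequence 2091. Col23a1 was at 3.42 CPM per kb. Col13a1, a collagen of the neuromuscular junction, was at 0.304 and Col17a1, a hemidesmosome protein of skin, at 0.152 CPM per kb.

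The remaining collagens were low. The network-forming Col8a2 and Col8a1, best known from the cornea and from vessels, were at 2.04 and 1.05 CPM per kb. The multiplexins Col18a1, the source of endostatin, and Col15a1 were at 1.03 and 0.575 CPM per kb. Col26a1 was at 0.280, Col7a1, which anchors skin to its basement membrane, at 0.139, and Col28a1 at 0.101 CPM per kb.

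Laminin RNA was unequal between chain classes. Each laminin trimer takes an alpha, a beta and a gamma chain, and the alpha chain carries most of the sites that cells bind. Summed over their genes, alpha chains reached 3.99, beta chains 11.0 and the gamma chains Lamc1 and Lamc3 6.62 CPM per kb. The order of these sums was the same with the longest transcript (5.46, 15.0 and 7.10) and with coding length (5.70, 15.7 and 10.5). Lamb2 (chromosome 9, 108479736 to 108490530), at 5.99 CPM per kb of exon, made up 54.3% of the beta sum, and Lamb1 was at 4.74 CPM per kb. With the longest transcript Lamb1 (3.02) lay above Lamb2 (2.69, log2 CPM per kb). Lamb1 was also above Lamb2 with coding length (3.10 against 2.72) and without length (5.56 against 5.19 log2 CPM). Lamc1 (chromosome 1, 153218922 to 153332786), the gamma chain of most laminins, was at 4.99 CPM per kb and made up 75.4% of the gamma sum. Lamb1, Lamb2 and Lamc1 lay so close that the order within each pair of them depended on the length used.

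The alpha sum was spread over its 5 chains. Lama5, of vascular and epithelial basement membranes, was at 1.27 CPM per kb of exon and Lama2, made by muscle, pericytes and astrocytes, at 1.24. With the longest transcript Lama2 (1.07) lay above Lama5 (0.35, log2 CPM per kb). Lama2 was also above Lama5 with coding length (1.11 against 0.38) and without length (4.34 against 3.86 log2 CPM). Lama4, of endothelium, was at 0.584, Lama1 at 0.467 and Lama3 at 0.432 CPM per kb.

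The gamma chain Lamc3, known from cortical vessels and retina, was at 1.63 CPM per kb. Lama3 and Lamb3, found mainly in epithelial laminins, were at 0.432 and 0.309 CPM per kb.

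The 3 highest integrins of the name rule per kb of exon were beta subunits. Without length Itga4 (5.55 log2 CPM) lay above Itgb5 (5.45 log2 CPM). Itgb1 (chromosome 8, 128685654 to 128733200), the partner of most alpha subunits that bind collagen or laminin, was the highest of the 72 genes per kb of exon at 15.5 CPM, above 82.2% of all genes. With coding length Col25a1 (5.64) and Itgb8 (5.38) exceeded Itgb1 (4.68, log2 CPM per kb of coding sequence), and without length they did so too. Itgb5 (chromosome 16, 33829665 to 33949338), which pairs with Itgav to bind vitronectin, was at 12.3 CPM per kb. Itgb1 and Itgb5 were the only members above 10 CPM per kb, a level passed by 26.8% of all genes. Itgb8 (chromosome 12, 119158022 to 119238802), whose dimer with Itgav activates latent TGF-beta in the developing brain and its vessels, was at 8.66 CPM per kb. Their partner Itgav, outside the name rule, was at 6.37 CPM per kb.

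The remaining beta subunits were below the median gene. Itgb2, the beta subunit of leukocytes and microglia, was at 1.80 CPM per kb, and its alpha partners Itgam and Itgal, also outside the rule, were at 1.28 and 0.0695 CPM per kb. Itgb4, a hemidesmosome subunit that pairs with Itga6, was at 1.25 CPM per kb. Itgb3, known from platelets, was at 0.509 and Itgb7, known from gut-homing lymphocytes, at 0.237 CPM per kb.

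Alpha subunits grouped here as laminin receptors lay above those grouped as collagen receptors per kb of exon, with no overlap of their values. The laminin receptors Itga3, Itga6 and Itga7 were at 3.70, 2.99 and 1.76 CPM per kb. The collagen receptors Itga1, Itga11, Itga10 and Itga2 were at 0.821, 0.512, 0.333 and 0.0612 CPM per kb, and Itga2, a platelet and epithelial subunit, was the lowest of the 72 genes per kb of exon. With coding length the classes overlapped, since Itga1 was at 2.11 and Itga7 at 1.97 log2 CPM per kb of coding sequence. Without length they overlapped too, with Itga1 at 3.93 and Itga7 at 3.83 log2 CPM. Itga4, which binds fibronectin and the vessel adhesion protein VCAM-1, was at 3.36 and its relative Itga9 at 0.738 CPM per kb. Of the subunits that recognise the RGD tripeptide, Itga8 was at 2.43, the fibronectin receptor Itga5 at 0.491 and the platelet subunit Itga2b at 0.351 CPM per kb. The exons of Itga4 share 1124 bases (8.04%) with Cerkl on the other strand, and 33.5% of the exon bases of Itga10 also belong to the same-strand gene model Gm42957, so the counts of both are less certain.

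Summed by partner, Itgb1 alone (15.5 CPM per kb) exceeded the 9 alpha subunits that pair only with it, which reached 10.9 CPM per kb together. With Itga4 and Itga6, which also take other beta subunits, another 6.34 CPM per kb of alpha subunits was present. Itgav, outside the name rule and at 6.37 CPM per kb, was in neither sum. These sums thus do not set Itgb1 against every alpha subunit that can pair with it. The difference between Itgb1 and the 9 alpha subunits shrank with coding length, to 25.7 against 23.8 CPM per kb. The 6 other beta subunits summed to 24.7 CPM per kb of exon, of which Itgb5 made up 49.6%. With coding length they summed to 64.6 CPM per kb, and Itgb8 (5.38) lay above Itgb5 (4.14, log2 CPM per kb of coding sequence). Without length Itgb8 also lay above Itgb5, at 6.58 against 5.45 log2 CPM. RNA levels do not give the amount of assembled receptor.

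**Figure D3:**
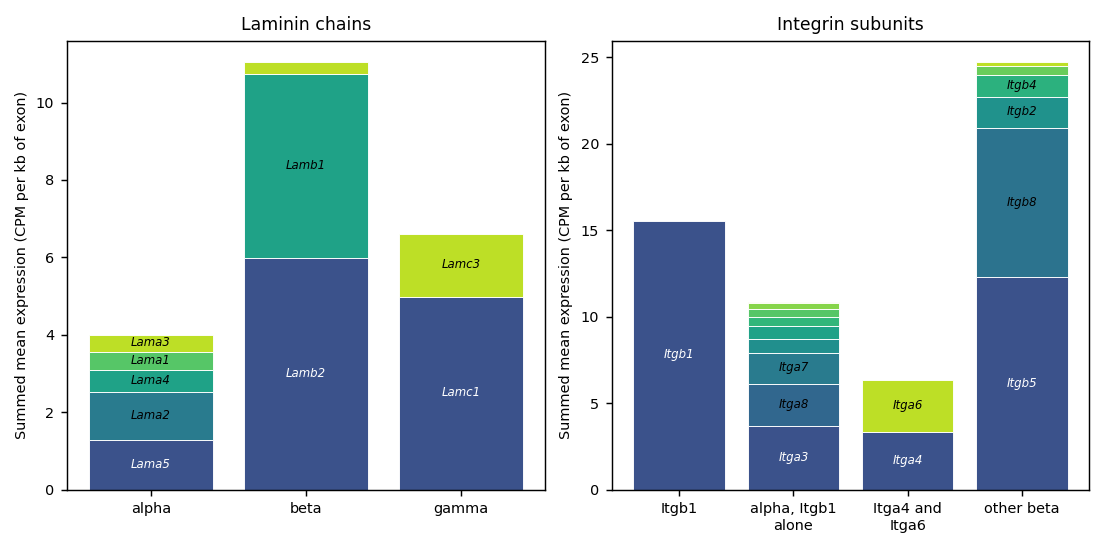
Bars show mean expression summed over genes (CPM per kb of exon), stacked by gene, for laminin alpha chains, beta chains and Lamc1 with Lamc3 (gamma) and for Itgb1, alpha subunits that pair with it alone, Itga4 with Itga6, and the other beta subunits. Laminin alpha chains sum to 3.99 CPM per kb against 11.0 for beta chains, and Itgb1 alone reaches 15.5 CPM per kb.

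The 3 genes that only carry a chain's name had levels of their own. Col4a3bp, the ceramide transfer protein that moves ceramide from the endoplasmic reticulum to the Golgi, was at 11.2 CPM per kb. Itgb1bp1, a cytoplasmic protein that binds the tail of Itgb1, was at 4.73 CPM per kb. Itgb3bp, a centromere protein, was at 0.963 CPM per kb.

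Several members are neighbours in the genome. Counting pairs with at most 200 kb between them, there were 9 pairs among 71 members, with a median absolute difference of 1.22 on the log2 CPM per kb scale, beside 1.95 over all 2485 pairs of these members. The 3 pairs that point away from each other were the type IV pairs, with a median absolute difference of 0.43. Col4a1 and Col4a2 start 21 bases apart and differed by 0.41, Col4a3 and Col4a4 start 72 bases apart and differed by 0.43, and Col4a5 and Col4a6, on chromosome X, start 1309 bases apart and differed by 1.73 (absolute log2 CPM per kb). The most unlike of the 9 pairs were on the same strand, Itga2 with Itga1 (3.75) and Col6a2 with Col6a1 (2.45). The most alike pair, Col6a5 with Col6a4 (0.26), was on the same strand too. These are few pairs and paralogs, and no test was made.

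**Figure D4:**
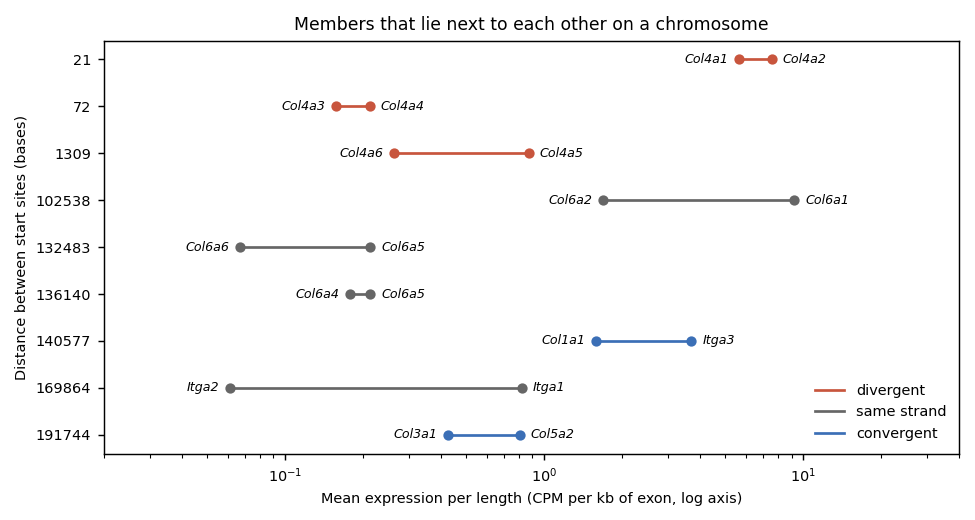
Each line joins the mean expression (CPM per kb of exon, log axis) of 2 neighbouring genes, ordered by the distance between their starts and coloured by orientation. The divergent pair Col4a1 and Col4a2 sits far above the divergent pair Col4a3 and Col4a4, and within each of these pairs the ends lie close together.

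CpG content of the promoter went with the level over members and over all genes. The CpG count of the 300-base window had a Spearman rho of 0.442 with CPM per kb over 48 members that have 1 window, and of 0.30 over 9603 genes. These points share libraries, and base composition can affect sequencing, so the rho is given without a p. The 13 members with at least 20 CpG, the median of genes, had a median of 2.43 CPM per kb, and the 35 below it a median of 0.491 CPM per kb. These 13 were 27.1% of the members, whereas 52.8% of all genes had at least 20 CpG. Over all genes the medians were 5.84 CPM per kb with at least 20 CpG and 2.55 CPM per kb below. Col6a1 with 3 CpG (9.23 CPM per kb) and Lamb2 with 4 (5.99 CPM per kb) were high with few CpG.

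The genes that work with these proteins were on the whole higher. Of 10 matrix partners 5 lay above the median gene, among them Sparc, a collagen-binding glycoprotein of glia and endothelium, at 103 CPM per kb, Vtn (vitronectin) at 33.3, Dcn (decorin) at 18.2, Agrn (agrin) at 17.3 and Fn1 (fibronectin) at 6.46 CPM per kb. The basement membrane linkers Nid1 and Nid2 and the proteoglycan Hspg2 (perlecan) were at 1.49, 1.16 and 1.12 CPM per kb. Of 7 genes of collagen making 3 lay above the median gene, with the prolyl hydroxylase P4ha1 at 11.0 and the collagen chaperone Serpinh1 at 6.61 CPM per kb, whereas the crosslinking enzyme Lox was at 0.203 CPM per kb. Of 7 adaptors and other laminin receptors 5 lay above the median gene, with dystroglycan (Dag1) at 19.9, kindlin-2 (Fermt2) at 16.9 and focal adhesion kinase (Ptk2) at 9.79 CPM per kb.

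The labelled tissue was checked against marker genes. Of 7 markers of hippocampal granule and pyramidal neurons 6 lay above the median gene, up to 92.3 CPM per kb for Neurod6, and the list median was 17.8 CPM per kb. Markers of the cells that make most basement membrane and fibrillar collagen were present as well. The list median was 3.84 CPM per kb for endothelium and 2.38 for pericytes and smooth muscle, each with 2 of 5 markers above the median gene. It was 5.65 for fibroblasts and meninges (4 of 6 above) and 6.18 for choroid plexus (3 of 5 above). The choroid plexus markers ran from 3.13 CPM per kb for Folr1 to 585 CPM per kb for Ttr. Medians of astrocyte, oligodendrocyte and microglia markers were 42.4, 170 and 15.1 CPM per kb. How much of each member's RNA came from each of these cell types, or from meninges and choroid plexus taken with the tissue, was not tested.

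Counting could blur some members. Of the 72, 21 share an exon base with another annotated gene, and 7 share at least 5% of their exon bases, namely Itga10, Itga4, Itgb4, Lamc3, Col9a3, Col4a3 and Itga8. A stretch of at least 75 bases, the read length, with at least 98% identity to a transcript of another gene was found in 15 members, and in 2 of them the other gene shared no exon bases, namely Itga6 with Gm29397 and Itgb5 with Gm38317. Of 80 annotated genes that fit the name rule, Col10a1, Col9a1, Itgb6, Itgb2l and Itgb1bp2 were not analysed here.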

How the data were processed

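Per the submitters' notes, the authors aligned reads with STAR to mm10 (GRCm38), counted them per gene with featureCounts and fitted limma. Not given in the sources used here were tool versions, low-expression filter, normalization factors, and how strand and multi-mapping reads were handled. The 2 deposited tables, 1 per genotype, hold mean expression as log2 CPM, identical in both and pooled over the fit, and the authors' comparison of VEH with CORT (log2 fold change, standard error, moderated t, p, adjusted p, joint F with its p, degrees of freedom), which was not used here. The tables list 7 residual degrees of freedom where 4 groups of 3 libraries (12 in all) would give 8, so it is unknown whether every library entered each mean. The labels state about 35 to 40 M reads per library, and the number counted is unknown.

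Of 17564 genes, 17557 matched GENCODE M21 gene models (GRCm38), and 2 to the log2 CPM was divided by exon kilobases. Promoter windows came from RefSeq (GRCm38.p6). Similar transcripts were found with blastn 2.17.0. Calculations used Python 3.11.15, numpy 2.4.6, pandas 2.3.3, scipy 1.17.1 and matplotlib 3.10.9. Only the steps for exon length and percentile were tested on simulated data. Every member is described by role. In each role the highest and lowest, members above 10 CPM per kb, known partners and the 5 lowest are named with values, and values of further members were added after seeing the data. 1 member counted in the totals is not reported here. Members and lists were chosen with earlier results of these data known. Other lengths, scales, gene backgrounds and thresholds were tried, and lengths for both counts were chosen after seeing the data.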

Additional observations from a re-analysis of the deposited data

How the results depend on the processing

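Of the 72 chains and subunits, 11 lay above the median gene per kb of exon, 19 on log2 CPM without length and 5 with coding length. These 19 included all 11, and the 5 included 4 of them. Above 1 CPM per kb of exon lay 33 members, beside 76.3% of all genes, above 0.5 CPM per kb 44, beside 86.0%, and above 2 CPM per kb 18, beside 64.3%. Above 1 CPM per kb lay 37 members with the longest transcript, beside 79.2% of all genes, and 43 with coding length, beside 90.6% of the genes that have one. The collagen median was -0.76 log2 CPM per kb of exon, -0.32 with the longest transcript, 0.15 with coding length and -0.72 with every gene of the name rule. The laminin median was 0.31, then 0.35 with the longest transcript and 0.38 with coding length, and the integrin median was 0.32, then 0.49 and 1.24. The log2 difference of Col1a1 minus Col1a2 was 0.12 per kb of exon and turned to -0.95 with the longest transcript and -0.89 with coding length. That of Lamb1 minus Lamc1 turned from -0.07 to 0.59 and 0.0261, and that of Lamb2 minus Lamc1 from 0.27 to -0.35 with coding length. In these 3 pairs the change of order comes from the length alone, since the deposited value is the same. No paired analysis was possible because the values are means over libraries and carry no replicate numbers, and for the same reason no replicate could be left out. The number of reads counted per library is unknown and the values are means of logarithms, so no counting interval was given for low values.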
